A study of Mus musculus with 6 samples.

Results

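The cyclins, cyclin-dependent kinases (CDKs) and CDK inhibitors followed here were 10 genes taken by name: the cyclins Ccnd2, Ccnd3, Ccne1, Ccna2 and Ccnb1, the kinases Cdk4 and Cdk6, and the inhibitors Cdkn1a, Cdkn1b and Cdkn2c. The choice set no threshold on their values, and all 10 were among the 16381 genes listed with a normalized count and among the 14419 that passed the filter on low values. The RNA came from aILC2s, the group 2 innate lymphoid cells sorted from the lungs of wild-type BALB/cJ mice after intranasal recombinant IL-33 at 0.5 µg per day for 3 days. The mice were 6 to 8 weeks old and given as female. Sorted cells, all from IL-33-challenged lungs, were cultured for 24 h with 250 µM melatonin (3 libraries) or with DMSO, the solvent, as vehicle (3 libraries). No source used here says whether the libraries of a group came from separate mice, so p-values measure the spread between these libraries only, and the library numbers in the labels run in separate blocks for melatonin and vehicle, so any batch that follows them cannot be told apart from the treatment.

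Cyclins are named for levels that rise and fall as a cell divides, and each switches on a kinase by binding to it. D cyclins with CDK4 or CDK6 phosphorylate the RB protein and release E2F factors before DNA replication, cyclins E and A act with CDK2 as DNA is copied, and cyclin B1 with CDK1 drives mitosis. The INK4 inhibitors, which the Cdkn2 genes encode, bind CDK4 and CDK6 alone, whereas the CIP/KIP inhibitors of the Cdkn1 genes bind many cyclin-CDK complexes. ILC2s are tissue lymphocytes that divide and secrete type 2 cytokines when IL-33 reaches them.

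The libraries held between 17056267 and 20511700 estimated counts, and 7094 of the 14419 genes tested (49.2%) passed an adjusted p of 0.05 in limma between melatonin and vehicle, 24.5% higher and 24.7% lower. All 15 ILC2 markers were present, and their summed level was between 159069 and 174660 normalized counts with melatonin and between 227788 and 242906 with vehicle. Of the 15, 9 were lower, Il5, Il2ra and Id2 among them, 3 were higher (Il1rl1, Rora and Kit) and 3 were not called (Gata3, Icos and Ptprc). Several lists of markers of other cells had lower sums in the melatonin libraries. The 9 myeloid genes summed to 366 to 885 against 1487 to 1751, the 5 listed T cell genes of 9 to 2127 to 3173 against 6042 to 6571 (Cd4 and Cd8a had no row), and the 5 listed NK and ILC1 genes of 6 to 24.1 to 36.1 against 263 to 343. The 3 NK and ILC1 genes tested were all lower, Ncr1 at 0, 0 and 1.01 against 104, 101 and 114 (−6.41, limma adjusted p = 2.7e-05). Klrb1c, not tested, was at 0 in all melatonin libraries and at 5.6, 9.37 and 6.3 with vehicle. The 7 epithelial genes summed to 1058 to 1261 against 941 to 2325. Of the 6 tested, 4 were lower, 1 was higher and 1 was not called. The gene that rose was Epcam, the most abundant by mean, at 1230, 1016 and 1046 against 623, 745 and 634 (0.72, limma adjusted p = 0.0011). Scgb1a1 was at 0, 0 and 1.01 with melatonin and at 95.2, 21.5 and 1045 with vehicle. Sftpc was at 6.54, 5.46 and 3.02 against 155, 122 and 389. The summed B cell genes (3 listed of 6) were 145 to 241 against 392 to 566, and the 1 listed endothelial and stromal gene of 7, Pecam1, was 310 to 416 against 1001 to 1066, whereas erythroid genes (3 of 5) and mast cell, basophil and eosinophil genes (3 of 7) summed to between 1.87 and 56 in every library, with ranges that overlapped between the groups. Per the study's methods the sort kept live ST2+ CD127+ cells that were positive for CD45 and negative for T cell, B cell, NK cell, myeloid, mast cell or basophil and erythroid surface markers, a gate meant to remove those cells and, through CD45, epithelium and stroma. The part of any such cells in the results below was not tested. In 4 of the 6 libraries the transcripts went against the stated sex. The Y-linked Ddx3y was between 746 and 1071 in the vehicle libraries and melatonin replicate 1 and at 0 in melatonin replicates 2 and 3, where the X-linked Xist stood at 579 and 1091. Each member is therefore also given without melatonin replicate 1 and with that replicate as the only melatonin library against the 3 vehicle libraries, none of the members being on a sex chromosome. In that last fit the spread comes from the vehicle libraries alone and the lone melatonin library is assumed to vary as they do, so its log2 differences are given as values and no loss of a call is read from it. Without melatonin replicate 1, every melatonin library lacked Ddx3y and every vehicle library held it. In that fit the treatment cannot be told apart from the difference these transcripts mark, and calls gained there carry this limit.

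Of the 10 members, 3 rose with melatonin (Ccnd2, Cdkn1b and Cdkn2c), 3 fell (Ccnb1, Cdk4 and Cdk6) and 4 did not pass the test. The 6 called are a share near the 49.2% of all genes tested, so the count is no result about the family, and the values of each gene follow. The groups did not overlap for 7 members, against 60.4% of all genes tested. In these bulk libraries, fewer cells that express a gene and less of its RNA per cell cannot be told apart.

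**Figure D1:**
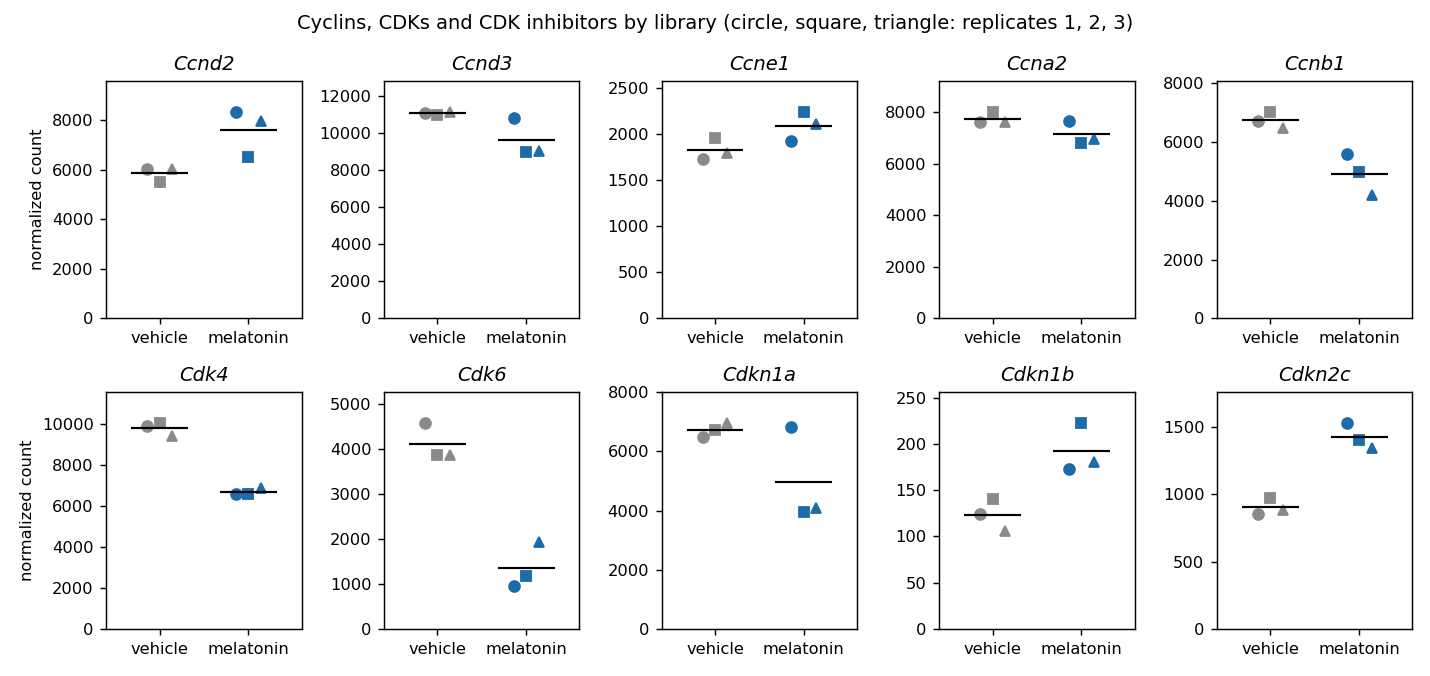
Normalized counts of the 10 members in the 3 vehicle and 3 melatonin libraries, each panel on its own axis from 0, with a bar at the group mean. The melatonin libraries of Cdk4 and Cdk6 lie below all vehicle libraries and those of Cdkn2c above, while melatonin replicate 1 of Cdkn1a, at 6836, lies within the vehicle values.

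The kinases that D cyclins activate were both lower with melatonin. Cdk6 (chromosome 5, 3391485 to 3581008, plus strand, GRCm39) had normalized counts of 962, 1179 and 1939 in the melatonin libraries (replicates 1 to 3, here and below) and of 4594, 3880 and 3877 in the vehicle libraries. Every melatonin library was below every vehicle library, and melatonin replicate 3 was the highest of its group. The log2 fold change, on the scale of log2 of the normalized count plus 1, was −1.66 ± 0.22 (SE, n = 3 per group, limma adjusted p = 0.00049), a 3.15-fold fall and the largest change of the 10. It was −1.44 without melatonin replicate 1 and −2.09 with that library alone. Within the span of Cdk6 lies Gm17590, an annotated gene on the opposite strand, at 14, 16.1 and 13.1 normalized counts with melatonin and 341, 375 and 321 with vehicle. The kit did not keep strand, so reads of Cdk6 and of a partner on the other strand cannot be told apart where they overlap.

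Cdk4 (chromosome 10, 126895180 to 126903789, plus strand) stood at 6603, 6586 and 6905 normalized counts with melatonin and 9918, 10087 and 9440 with vehicle. The groups were far apart and each was tight, with an SD of 179 around a melatonin mean of 6698 and of 336 around a vehicle mean of 9815. Its log2 fold change was −0.55 ± 0.07 (SE, n = 3 per group, limma adjusted p = 0.00041), −0.54 without melatonin replicate 1 and −0.57 with that library alone. The end of Cdk4 overlaps Tspan31, a tetraspanin gene on the opposite strand, over 646 bases of transcript. Tspan31 was at 7012, 5294 and 5175 with melatonin and 3258, 3187 and 3048 with vehicle, a rise of 0.87 ± 0.12 (SE, limma adjusted p = 0.00052). The sum of both genes, an alternative chosen after seeing the data, changed by −0.05 (limma adjusted p = 0.61). It adds all of a gene that rose to all of a gene that fell, so it cannot show how reads of the overlap were divided. The call is for Cdk4 as the authors' algorithm shared reads between the genes, and that sharing was not tested.

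The promoters of both kinases hold the E-box CACGTG, the hexamer that MYC and the circadian factors CLOCK and BMAL1 bind, and they are shown because Cdk4 and Cdk6 fell together. RefSeq promoters on GRCm38.p6 were at hand for 8 of the 10 members, all but Ccnd2 and Ccna2. CACGTG, which reads the same on both strands, occurred in the 250 bases before the start in 6.02% of 32851 promoters. Cdk4 held 4 copies, starting 172, 118, 98 and 11 bases before the start, a number reached by 7 promoters of the table, or 0.0213%. Cdk6 held 1, starting 220 bases before, and no other matched member held any. The sequences below run 5′ to 3′ from chr10:127063285-127063534 and chr5:3343643-3343892, both on the plus strand, with E-boxes in capitals. A match is a description of letters only, and binding was not measured.
Cdk4: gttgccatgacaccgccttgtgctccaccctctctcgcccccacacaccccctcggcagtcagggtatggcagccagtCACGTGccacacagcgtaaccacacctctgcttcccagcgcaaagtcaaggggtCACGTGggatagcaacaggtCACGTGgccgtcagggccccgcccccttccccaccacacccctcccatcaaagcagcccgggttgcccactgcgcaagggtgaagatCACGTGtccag
Cdk6: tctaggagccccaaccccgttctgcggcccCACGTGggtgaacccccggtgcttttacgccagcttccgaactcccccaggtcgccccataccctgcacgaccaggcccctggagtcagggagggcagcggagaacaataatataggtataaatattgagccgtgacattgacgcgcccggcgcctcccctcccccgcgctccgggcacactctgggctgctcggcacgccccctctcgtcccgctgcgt

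The D cyclins that partner these kinases did not move alike. Ccnd2 (chromosome 6, 127102125 to 127129156, minus strand) was at 8327, 6500 and 7946 normalized counts with melatonin and 6008, 5515 and 6013 with vehicle. All melatonin libraries were above all vehicle libraries, replicate 2 by the smallest margin. Its log2 fold change was 0.37 ± 0.10 (SE, n = 3 per group, limma adjusted p = 0.016), 0.30 without melatonin replicate 1 and 0.51 with that library alone. The call was lost without vehicle replicate 2 (limma adjusted p = 0.071), under the length correction (0.24, limma adjusted p = 0.087) and in limma without the trend (adjusted p = 0.056).

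Ccnd3 (chromosome 17, 47815767 to 47910624, plus strand) was at 10829, 8993 and 9016 with melatonin and 11072, 10964 and 11136 with vehicle. Melatonin replicate 1 lay just below the lowest vehicle library and replicates 2 and 3 were further below, so the groups did not overlap. The log2 difference was −0.21 ± 0.09 (SE, n = 3 per group, limma adjusted p = 0.082), with a 95% interval from −0.41 to 0.00. It was −0.30 without melatonin replicate 1 (limma adjusted p = 0.0024) and −0.03 with that library alone. At its end Ccnd3 shares 369 bases of transcript with Bysl on the opposite strand, which fell by 0.65 on the log2 scale. Ccnd1, the remaining D cyclin, was at 6.89 or less in every library and was not tested.

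Of the INK4 inhibitors of CDK4 and CDK6, Cdkn2c and Cdkn2b rose. Cdkn2c (chromosome 4, 109517957 to 109524386, minus strand) stood at 1532, 1403 and 1346 normalized counts with melatonin and 857, 971 and 884 with vehicle. The lowest melatonin library was well above the highest vehicle library. Its log2 fold change was 0.66 ± 0.09 (SE, n = 3 per group, limma adjusted p = 0.00059), a 1.58-fold rise, 0.61 without melatonin replicate 1 and 0.76 with that library alone. Of its relatives, Cdkn2b was at 146, 119 and 131 against 41.1, 41.2 and 33.6 and rose by 1.75 ± 0.20 (SE, limma adjusted p = 0.00025), from a low level. Cdkn2d, at 3448, 3297 and 3233 against 2941, 3008 and 3024, had a log2 difference of 0.15 ± 0.07 (SE, limma adjusted p = 0.097). It passed the test under scaling to the same total (0.19, limma adjusted p = 0.042), voom (0.19, adjusted p = 0.041), the length correction (0.35, adjusted p = 0.0054) and the GC correction (0.28, adjusted p = 0.0091). Cdkn2a was at 8.4 or less throughout and was not tested.

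**Figure D2:**
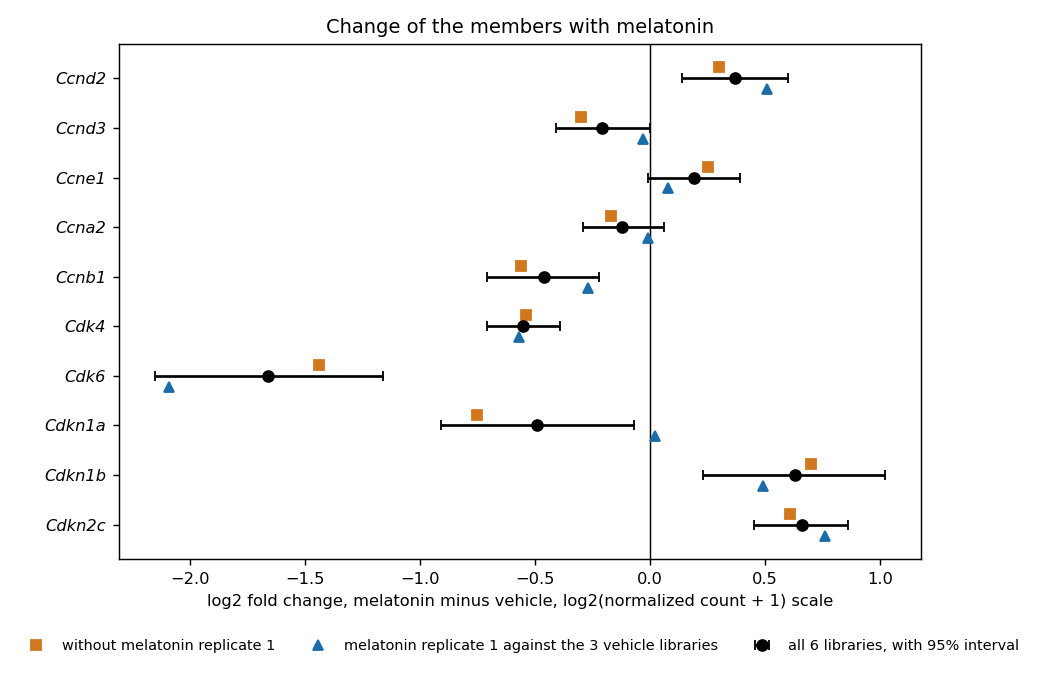
Log2 fold change of each member, melatonin minus vehicle, with all 6 libraries and its 95% interval (black), without melatonin replicate 1 (orange squares) and with melatonin replicate 1 as the only treated library (blue triangles). Cdk6 is at −1.66 and Cdkn2c at 0.66, and the triangle of Cdkn1a is at 0.02 while its square is at −0.75.

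Whether the members among the cyclins of DNA replication passed the test depended on the setting, and neither did in the fit used throughout. Ccne1 (chromosome 7, 37797404 to 37808264, minus strand), the partner of CDK2 at the onset of replication, was at 1926, 2238 and 2108 with melatonin and 1733, 1952 and 1798 with vehicle. Melatonin replicate 1 lay below vehicle replicate 2, so the groups overlapped, and the log2 difference was 0.19 ± 0.09 (SE, n = 3 per group, 95% interval −0.01 to 0.39, limma adjusted p = 0.097). Without melatonin replicate 1 it was 0.25 and passed the test (limma adjusted p = 0.027), and with that library alone it was 0.08. With all 6 libraries it also passed with sample weights (0.23, limma adjusted p = 0.036), voom (0.23, adjusted p = 0.049), the length correction (0.29, adjusted p = 0.024) and the GC correction (0.31, adjusted p = 0.023). Its paralogue Ccne2, at 1729, 2012 and 1648 against 1287, 1329 and 1231, rose by 0.48 ± 0.09 (SE, limma adjusted p = 0.0033). Cdk2, the kinase of both, was at 2890, 3244 and 3025 against 2488, 2703 and 2509 and rose by 0.25 ± 0.08 (SE, limma adjusted p = 0.027). That call was lost under upper quartile scaling, in limma without the trend and without melatonin replicate 2 or vehicle replicate 1 or 3.

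Ccna2 (chromosome 3, 36619014 to 36626299, minus strand), which works with CDK2 and then CDK1, was at 7667, 6807 and 6947 normalized counts with melatonin and 7611, 8000 and 7612 with vehicle. Melatonin replicate 1 lay among the vehicle libraries. The log2 difference was −0.12 ± 0.08 (SE, n = 3 per group, 95% interval −0.29 to 0.06, limma adjusted p = 0.23), its sign turned under quantile normalization, and it passed the test under the GC correction (−0.24, limma adjusted p = 0.037). It was −0.17 without melatonin replicate 1 (limma adjusted p = 0.038) and −0.01 with that library alone. Ccna2 shares 513 bases of transcript with Exosc9 on the opposite strand, which did not pass the test (−0.05 ± 0.09, SE).

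The mitotic cyclin Ccnb1 and its kinase Cdk1 were lower. Ccnb1 (chromosome 13, 100915153 to 100923116, minus strand) was at 5592, 4980 and 4191 with melatonin and 6713, 7028 and 6495 with vehicle. The groups did not overlap, and the melatonin libraries spread more widely, with an SD of 702 against 268. The log2 fold change was −0.46 ± 0.11 (SE, n = 3 per group, limma adjusted p = 0.0069), −0.56 without melatonin replicate 1 and −0.27 with that library alone. The value is uncertain because the processed copies Ccnb1-ps and Gm12856 match the Ccnb1 transcript at 99.2% over 1287 bases and 98.1% over 1294 bases. They were listed at a mean of 1688 and 285 with melatonin and 2366 and 389 with vehicle, and the sum of all 3 genes, an alternative added after seeing the data, fell by 0.47 (limma adjusted p = 0.0049). Its kinase Cdk1, at 3503, 3285 and 3670 against 4667, 4710 and 4254, fell by 0.38 ± 0.08 (SE, limma adjusted p = 0.0043). Ccnb2, a relative of Ccnb1, was at 3703, 3253 and 2884 against 3791, 3732 and 3485 and did not pass the test (−0.17 ± 0.10, SE, limma adjusted p = 0.19), although it did with sample weights (−0.21, limma adjusted p = 0.046) and without melatonin replicate 1 (−0.26, limma adjusted p = 0.022). With that library alone the difference was 0.01.

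The CCAAT box, a 5-base element found before many genes of mitosis and bound by the factor NF-Y, occurred at least once on either strand in 33.8% of the 32851 promoters and at least 2 times in 10.1%. Ccnb1 held 2, starting 99 and 67 bases before the start. Cdkn1b, an inhibitor that rose, also held 2, starting 161 and 35 bases before. The pair is shown because a member that fell and one that rose hold the same number of boxes, in capitals, from chr13:100786487-100786736 on the minus strand and chr6:134920151-134920400 on the plus strand of GRCm38.p6, each read 5′ to 3′. No matched member held both a CCAAT box and an E-box in these bases, so the motifs could not overlap.
Ccnb1: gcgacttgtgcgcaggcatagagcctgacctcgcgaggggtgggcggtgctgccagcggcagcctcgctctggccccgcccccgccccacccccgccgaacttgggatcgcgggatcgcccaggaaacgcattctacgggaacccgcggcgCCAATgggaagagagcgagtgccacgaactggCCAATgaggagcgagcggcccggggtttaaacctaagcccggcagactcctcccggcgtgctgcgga
Cdkn1b: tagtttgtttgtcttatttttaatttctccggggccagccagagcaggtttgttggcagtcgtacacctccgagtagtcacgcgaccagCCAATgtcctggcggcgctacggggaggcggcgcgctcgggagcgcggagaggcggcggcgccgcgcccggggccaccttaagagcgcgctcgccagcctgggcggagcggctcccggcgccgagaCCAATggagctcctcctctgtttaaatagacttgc

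Of the CIP/KIP members, Cdkn1b rose, and Cdkn1a differed among the melatonin libraries. Cdkn1a (chromosome 17, 29309936 to 29319701, plus strand), the best known target of the tumour suppressor p53, had values of 6836, 3944 and 4081 with melatonin and of 6502, 6737 and 6973 with vehicle. Melatonin replicate 1 lay among the vehicle libraries and replicates 2 and 3, the libraries with Xist, were far below them. The log2 difference was −0.49 ± 0.19 (SE, n = 3 per group, 95% interval −0.91 to −0.07) and did not pass the test over all genes (limma adjusted p = 0.053). Without melatonin replicate 1 it was −0.75 (limma adjusted p = 6e-05), and with that library alone the difference was 0.02. With all 6 libraries Cdkn1a also passed the test with a pseudocount of 10 (limma adjusted p = 0.049), upper quartile scaling (0.039), sample weights (0.0012) and the length correction (0.029), so the call depends on the setting as well as on this library.

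Cdkn1b (chromosome 6, 134897364 to 134902476, plus strand), which holds CDK2 complexes inactive in resting cells, was at 173, 223 and 180 with melatonin and 124, 141 and 106 with vehicle. Every melatonin library was above every vehicle library. It rose by 0.63 ± 0.17 (SE, n = 3 per group, limma adjusted p = 0.016), and the change was 0.70 without melatonin replicate 1 and 0.49 with that library alone. The call was lost without melatonin replicate 2 (limma adjusted p = 0.059) or vehicle replicate 3 (limma adjusted p = 0.065). Cdkn1c, the third CIP/KIP gene, rose by 1.19 ± 0.28 (SE, limma adjusted p = 0.0076) from 16.8, 15 and 19.9 to 35.5, 43.7 and 42.2. Cdkn1c and Cdkn2b were named for being called relatives of members, after their values had been seen.

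Ratios of members within a library do not depend on how libraries were scaled. The log2 ratio of Ccnd2 to Ccnd3 was −0.38, −0.47 and −0.18 in the melatonin libraries and −0.88, −0.99 and −0.89 in the vehicle libraries. Its mean moved from −0.92 ± 0.06 to −0.34 ± 0.15 (SD, n = 3 per group, exact two-sided permutation p = 0.1), and every melatonin library was above every vehicle library. The log2 ratio of Cdk6 to Cdk4 was −2.78, −2.48 and −1.83 with melatonin and −1.11, −1.38 and −1.28 with vehicle. Its mean moved from −1.26 ± 0.14 to −2.36 ± 0.48 (SD, n = 3 per group, exact two-sided permutation p = 0.1), so that Cdk6 was lower against Cdk4 in all 3 melatonin libraries. The log2 ratio of Cdkn1b to Cdkn1a was −5.30, −4.14 and −4.50 with melatonin and −5.70, −5.56 and −6.03 with vehicle, a difference of 1.12 (n = 3 per group, exact two-sided permutation p = 0.1). For this ratio melatonin replicate 1 was the nearest to vehicle. With 3 libraries against 3 this test cannot give a p below 0.1, and the Cdk4 value carries the overlap with Tspan31.

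**Figure D3:**
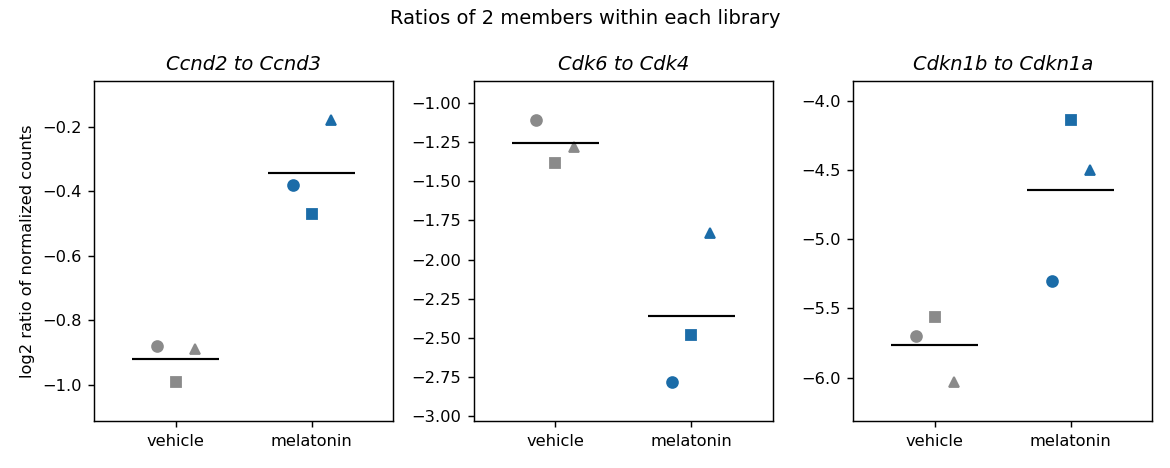
Log2 ratios of 2 members within each library for vehicle (grey) and melatonin (blue), with a bar at the group mean; the y axes differ between panels. In all 3 panels the groups do not overlap, with differences of 0.58, −1.11 and 1.12.

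Levels of different genes were compared per kilobase of the longest annotated transcript, as normalized counts per kb, with no test. In the vehicle libraries Cdk4 was the most abundant at 4717 ± 161 (SD, n = 3), followed by Ccnd3 at 2866 ± 22.5, Ccnb1 at 2587 ± 103 and Ccna2 at 2486 ± 72.1. Cdkn1a followed at 1643 ± 57.4, Ccnd2 at 923 ± 45.2 and Ccne1 at 880 ± 54, and the scarcest were Cdk6 at 353 ± 35.5, Cdkn2c at 179 ± 11.8 and Cdkn1b at 27.2 ± 3.9. Ccnb1 and Ccna2 overlapped in range, as did Ccnd2 and Ccne1, and the other neighbours did not.

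In the melatonin libraries Cdk4 still led at 3219 ± 86.2 per kb, with Ccnd3 at 2492 ± 273, Ccna2 at 2293 ± 148 and Ccnb1 at 1888 ± 269. Cdkn1a at 1208 ± 398, Ccnd2 at 1199 ± 152 and Ccne1 at 1006 ± 75.2 overlapped in range, as did Ccnd3 with Ccna2 and Ccnb1 with Cdkn1a. Cdkn2c, at 283 ± 18.9, stood above Cdk6, at 117 ± 44, in place of below it, and Cdkn1b was last at 42.1 ± 5.95. Over the exon union the order of Cdk6 and Cdkn2c changed in the same way, from 285 and 142 to 94.3 and 224. On that scale the mean of Ccnd3 stood behind those of Cdk4, Ccna2 and Ccnb1 in both groups, at 1196 with vehicle and 1040 with melatonin. The melatonin ranges of Ccnd3 (973 to 1171) and Ccnb1 (977 to 1303) overlapped. Per canonical transcript, which shortens the length taken for Cdkn2c from 5039 to 2696 bases, the vehicle ranges of that pair overlapped (333 to 394 and 318 to 360), and Ccnd3 was first in place of Cdk4, at 5479 against 4717. Cdkn1a, whose length then falls from 4100 to 1923 bases, was behind only Ccnd3 and Cdk4 by group mean on that scale. With vehicle it was at 3503, above Ccnb1 at 2669 and Ccna2 at 2611. With melatonin its mean was 2576, but its range (2051 to 3555, replicate 1 highest) overlapped those of its neighbours. These were Cdk4 (3165 to 3318), Ccna2 (2296 to 2586) and Ccnb1 (1659 to 2213), so its rank there was not resolved.

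Cdk4 had the smallest p of the called members, and the genes with a mean of at least 100 whose log2 values followed it most closely over the 6 libraries were the chemokine receptor Ccr8 (Pearson r = 0.9997), the arginine sensor Castor1 (r = 0.9989) and the replication clamp Pcna (r = 0.9989), of 9989 genes compared. With 3 libraries in each group these coefficients mainly restate a difference between the groups, and they are given as a description.

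Of the 19 RB and E2F genes tested around the members, 8 were higher and 3 lower, with a median log2 fold change of 0.16. Over all genes tested 24.5% were higher and 24.7% lower, with a median of 0.00, and neither this list nor the lists below were tested against that background. E2f1, an activating E2F, was at 3674, 3085 and 2221 with melatonin and 707, 1348 and 1833 with vehicle and rose by 1.28 ± 0.31 (SE, limma adjusted p = 0.0093), with wide spread in both groups. E2f4, an E2F that works in repressor complexes, was at 3916, 3778 and 3847 against 6700, 6857 and 6925 and fell by 0.83 ± 0.07 (SE, limma adjusted p = 6.1e-05). Lin52, a subunit of the DREAM complex, rose by 0.77, and Mybl2, the MYB factor that joins the rest of that complex in dividing cells, fell by 0.57. Rb1, the substrate of CDK4 and CDK6, was at 2867, 3114 and 1807 against 1451, 1689 and 2037. Its groups overlapped, and its change of 0.56 ± 0.20 (SE, limma adjusted p = 0.043) lost the call in 9 of 20 other fits, among them without melatonin replicate 1 or 2 and without vehicle replicate 1 or 2.

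Of the 23 genes of CDK phosphorylation and turnover, Cdkn1a and Cdkn1b among them, 7 were higher and 2 lower, with a median of 0.11, a smaller share than the 49.2% called over all genes tested. Cdc20, an activator of the anaphase-promoting complex, fell by 0.54 ± 0.10 (SE, limma adjusted p = 0.0024), and Cks2, a small CDK-binding subunit, by 0.40 ± 0.10 (SE, limma adjusted p = 0.012), the latter lost under the length correction and without vehicle replicate 1. Fbxw7, the ubiquitin ligase subunit that marks cyclin E for destruction, was at 490, 482 and 427 against 230, 241 and 233 and rose by 0.99 ± 0.11 (SE, limma adjusted p = 0.00025). Fbxo5, an inhibitor of the anaphase-promoting complex, rose by 0.53 ± 0.08 (SE, limma adjusted p = 0.00064). Skp2, the ligase subunit for Cdkn1b protein, was at 403, 425 and 393 against 403, 386 and 346 and did not pass the test (0.11 ± 0.11, SE, limma adjusted p = 0.44). Its cofactor Cks1b also did not (−0.15 ± 0.08, SE, limma adjusted p = 0.15). Cks1b did pass with sample weights (−0.19, limma adjusted p = 0.049) and without melatonin replicate 1 (−0.20, limma adjusted p = 0.043). The signs of Skp2 and Cks1b turned under the length correction.

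Of 26 proliferation markers tested, 12 were lower and 3 higher, with a median of −0.17. This stands beside 24.7% lower and 24.5% higher over all genes tested. Tk1, the thymidine kinase, was at 2332, 2088 and 2199 against 3846, 3813 and 3954 and fell by 0.81 ± 0.07 (SE, limma adjusted p = 9.8e-05). Pcna was at 3651, 3663 and 3849 against 6618, 6572 and 6205 and fell by 0.80 ± 0.07 (SE, limma adjusted p = 8.5e-05). Rrm2, a subunit of ribonucleotide reductase, was at 31802, 36820 and 32132 against 25120, 26922 and 24592 and rose by 0.39, and Kif11, a spindle motor, rose by 0.27, a call lost in 7 of 20 other fits, among them without melatonin replicate 2 and without each vehicle replicate in turn.

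**Figure D4:**
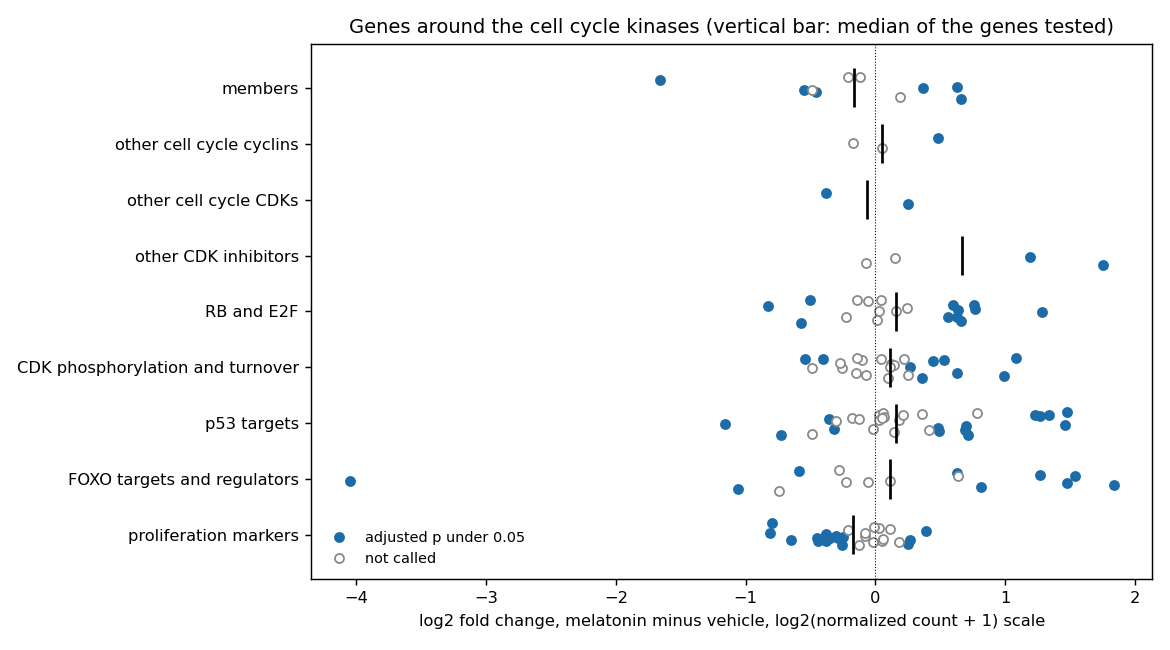
Log2 fold change, melatonin minus vehicle, of the tested genes of 9 lists, filled where the adjusted p was under 0.05, with a vertical bar at each list's median; the vertical spread within a row carries no meaning. The 26 proliferation markers have a median of −0.17. The 4 other CDK inhibitors tested run from −0.07 (Cdkn3) to 1.75 (Cdkn2b), so their median of 0.67 describes no single gene.

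Among Trp53 and its targets, the list that holds Cdkn1a, 10 of 30 were higher and 4 lower, with a median of 0.16, a share near the 49.2% called over all genes tested. Trp53, the gene of p53 itself, was at 2399, 2336 and 2736 against 4144, 4167 and 4079 and fell by 0.73 ± 0.08 (SE, limma adjusted p = 0.00024). Sesn1, a stress-induced inhibitor of mTORC1 signalling, rose by 1.48 and Btg2, an antiproliferative factor, by 1.46, whereas Zmat3, an RNA-binding target, fell by 1.16. The comparison of melatonin libraries that follows was not planned, and Cdkn1a itself is counted in it. Melatonin replicate 1 held the highest of the 3 melatonin values for 25 of the 30 genes (83.3%), against 37.7% of all genes tested. It was over 1.5 times both other melatonin libraries for 8 of them (26.7%, against 5.85% of all genes tested). Cdkn1a was one, and Bbc3, a cell death gene at 1298, 568 and 526 with melatonin and 546, 503 and 606 with vehicle, and Phlda3, an AKT inhibitor at 2072, 928 and 862 against 1125, 1100 and 1180, were further ones, named after their values had been seen. Genes of other lists also met the 1.5 limit, among them Il7r (1655, 743 and 700 with melatonin), Txnip (1941, 974 and 1208) and Kit (5935, 2593 and 2129). Those lists were not counted in this way, so the pattern is not shown to be particular to p53 targets. Melatonin replicate 1 also differed from the other melatonin libraries in its Y-linked transcripts, and any link between these differences was not tested.

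**Figure D5:**
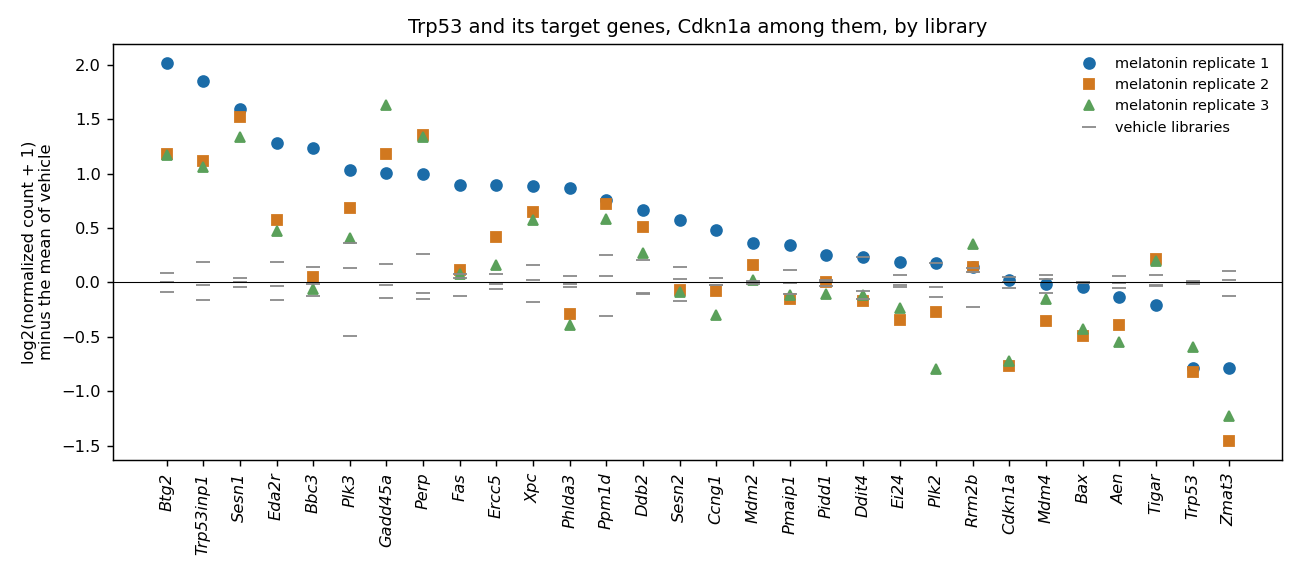
Trp53 and its targets by library, as log2 of the normalized count plus 1 minus the vehicle mean of each gene, ordered by melatonin replicate 1. Circles of melatonin replicate 1 are the highest of the 3 melatonin values for 25 of 30 genes, and at Cdkn1a the circle is near 0 while the other melatonin libraries are below.

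FOXO factors induce Cdkn1b in resting lymphocytes, and of 15 FOXO genes and targets, Cdkn1b among them, 6 were higher and 3 lower, with a median of 0.11, beside 24.5% higher and 24.7% lower over all genes tested. Foxo1 was at 1917, 1734 and 1353 with melatonin and 610, 1042 and 1308 with vehicle. The groups came close without overlapping, and the rise of 0.81 ± 0.25 (SE, limma adjusted p = 0.025) was lost in limma without the trend, with the replicate block (limma adjusted p = 0.051) and without melatonin replicate 1 or 2 or vehicle replicate 2. The size of the Foxo1 change also depended on single libraries. It was 0.50 without vehicle replicate 1, 1.05 without vehicle replicate 3 and 1.03 with melatonin replicate 1 alone. Klf2, a factor of lymphocyte quiescence, was at 232, 430 and 402 against 51.3, 111 and 150 and rose by 1.84 (limma adjusted p = 0.0043). The difference was 2.12 without melatonin replicate 1 and 1.27 with that library alone. Il7r, the receptor of IL-7 and one of the markers of the sort, was at 1655, 743 and 700 against 2071, 2102 and 1811 and fell by 1.06, a call lost without melatonin replicate 2 (−0.89, limma adjusted p = 0.053) and in limma without the trend (adjusted p = 0.055). Melatonin replicate 1 was nearest to vehicle, and the difference was −1.46 without it and −0.27 with it alone. Foxo3 was between 90.7 and 193 in all libraries and did not pass the test (−0.06, with an interval from −0.74 to 0.62), its sign depending on the fit.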

How the data were processed

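Bulk RNA sequencing of 6 libraries of sorted lung ILC2s was analysed, 3 per group. Per the study's methods, the authors made cDNA with an ultra-low-input kit, used Partek Flow for trimming, with STAR as the aligner and mm39 as the genome, counted Gencode genes by expectation maximization, removed low genes and applied DESeq2's median ratio scaling. The deposited values are therefore a signal (estimated counts over each library's size factor) and are called normalized counts. Of the values under 60, 72.0% to 73.6% per library were within 0.01 of a whole number of reads. The main test therefore used no count model. Among the alternatives, voom was run on values multiplied back to estimated counts.

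limma 3.58.1 in R 4.3.3 (with trend) was run on log2(normalized count + 1) for genes with at least 10 in 1 library, with treatment as the only term and Benjamini-Hochberg adjustment over 14419 genes at 0.05. The fold change understates low genes. Intervals are at 95%. The script was tested on simulated data. Ratios had an exact two-sided permutation test of 3 against 3. Positions, lengths and overlaps came from GRCm39, with similar transcripts found by megablast at 95% identity over 150 bases or more, and promoters from RefSeq. The members and lists were chosen with earlier results of these data known. Beside the members, the genes named are their partners and regulators and, from each list, the called genes with the largest rise and fall (up to 2 each in lists of over 15) among those with a mean of at least 100 and no overlap between groups. Alternatives were other pseudocounts, filters, scalings, limma options, thresholds, length and GC corrections, a replicate block and each library left out.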

Additional observations from a re-analysis of the deposited data

How the results depend on the processing

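Cdk6, Ccnb1 and Cdkn2c passed the test at 0.05 in every fit tried, and Cdk4 in all but the sum with Tspan31, a gene that rose. The members called higher, 3 with all libraries, numbered 2 to 4 as each library was left out, 1 at an adjusted p under 0.01 and 0 when a change of 1 or more on the log2 scale was also required. The members called lower, also 3, numbered 3 to 6 as each library was left out, with 6 without melatonin replicate 1. They numbered 5 under upper quartile scaling, 5 with limma sample weights, 5 under the length correction and 1 with that size required. The members gained there were Ccnd3 and Cdkn1a, joined by Ccna2 without melatonin replicate 1. In the fit without that library, treatment and the difference in Y-linked transcripts cannot be told apart. A pseudocount of 10 added Cdkn1a and the GC correction Ccna2, giving 4 lower each, and Ccne1 made 4 higher with sample weights, voom, the GC correction and without melatonin replicate 1, and the call of Ccnd2 was lost under the length correction and without the trend. The difference of Ccna2 became 0.02 under quantile normalization. With melatonin replicate 1 alone, that of Cdkn1a was 0.02, of Ccnb2 0.01 and of Foxo3 0.16. Under the length correction Cks1b was at 0.19 and Skp2 at −0.03. Foxo3 was at 0.07 under the GC correction and between −0.28 and 0.26 as each library was left out. The cause of these shifts was not tested. With the replicate block, 3 members were called higher and 3 lower, but the numbers did not pair the libraries, since the correlations of same-numbered deviations were −0.0540, 0.00644 and −0.0483. The block gave 3160 higher and 3278 lower calls over all genes, against 3529 and 3565. With 3 libraries per group, the 95% intervals of Ccne1 (−0.01 to 0.39) and Ccna2 (−0.29 to 0.06) hold 0, so their direction was not resolved.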

Other observations

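The counts of called genes among the transcription and atypical cyclins and CDKs were near the 49.2% called over all genes tested, and single genes are given here by their values. Of the 17 transcription and atypical cyclins tested, 5 were higher and 3 lower, with a median log2 fold change of 0.20. Ccng2, an unconventional cyclin linked to cell cycle arrest, had normalized counts of 5355, 3458 and 2987 with melatonin and 1317, 1305 and 1308 with vehicle and rose by 1.54 ± 0.18 (SE, limma adjusted p = 0.0003). Ccnl1, a cyclin of RNA splicing, was at 2054, 2157 and 1904 against 1528, 1600 and 1452 and rose by 0.42 ± 0.08 (SE, limma adjusted p = 0.0035). Ccnh, the cyclin of the CDK-activating kinase, was at 645, 854 and 831 against 1249, 1216 and 1044 and fell by 0.60 ± 0.13 (SE, limma adjusted p = 0.005). Its kinase Cdk7, at 608, 745 and 614 against 942, 898 and 770, fell by 0.41 ± 0.12 (SE, limma adjusted p = 0.02), whereas the third subunit, Mnat1, did not pass the test (−0.28 ± 0.15, SE, limma adjusted p = 0.14). Cdk7 and Mnat1 were named after their values had been seen.

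Of the 20 transcription and atypical CDKs tested, 3 were higher and 6 lower, with a median of 0.11. Cdk12 and Cdk13, related kinases of RNA polymerase II that share cyclin K, went in opposite directions. Cdk12 was at 180, 170 and 227 against 340, 258 and 348 and fell by 0.71 ± 0.17 (SE, limma adjusted p = 0.0085). Cdk13 was at 563, 653 and 480 against 294, 304 and 447 and rose by 0.71 ± 0.18 (SE, limma adjusted p = 0.011), with a difference of 0.72 for melatonin replicate 1 alone. Cdk11b, a kinase of splicing and transcription, fell by 0.46, from 1379, 1340 and 1400 to 937, 1020 and 1047. Cdk14, a membrane-bound kinase of cyclin Y, was at 261, 152 and 95.5 against 50.4, 49.7 and 51.4 and rose by 1.61 ± 0.32 (SE, limma adjusted p = 0.0037), with melatonin replicate 1 the highest.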
